A study of Homo sapiens with 9 samples.

Results

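The airway mucins considered here were MUC1, MUC5AC, MUC5B, MUC13, MUC16 and MUC20, the large glycoproteins that coat or are anchored in the surface of the airway epithelium. They were read on arrays from parental A549 cells and from both kinds of cells that arose after A549 was transduced with OCT3/4, SOX2 and KLF4 (OSK). Members were all non-control probes whose RefSeq transcript belonged to 1 of the 6 genes, whatever their values. Of 50599 non-control probes, 6 met the rule, and they covered 4 of the 6 genes: MUC5B with 1 probe, MUC1 with 2, MUC13 with 1 and MUC16 with 2. MUC5AC and MUC20 had no matched probe and were not analysed here. Of the 6 probes, 5 were well above the local background on at least 1 array and 3 were so on all 9 arrays.

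RNA was profiled on 9 Agilent 1-colour arrays, with 3 arrays of each group. A549 is a human lung adenocarcinoma line, and the parental cells were untransduced. The OSK-A549-Colony cells were the dome-shaped colonies that grew after pMXs retroviruses had carried OCT3/4, SOX2 and KLF4 into A549. The OSK-A549-SN cells were the spindle-shaped cells that surrounded those colonies and that came off first in a brief trypsin treatment. Both transduced groups were at later passages than the parental cells, so that passage and transduction cannot be told apart, and no array held cells with a control virus. The order of detachment in trypsin likewise cannot be told apart from the OSK-A549-SN identity. The groups were set apart by detachment in trypsin, after which what stayed on the dish was washed and the colonies picked. In bulk RNA of this kind, fewer cells that express a gene and less RNA per cell cannot be told apart.

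Secreted mucins such as MUC5AC and MUC5B are made by goblet cells and submucosal gland cells, are joined into polymers through their cysteine-rich ends and form the mucus gel that the cilia move. Membrane mucins such as MUC1, MUC13, MUC16 and MUC20 carry the same dense O-linked sugars on an extracellular stalk, hold the gel off the cell surface and, through their short cytoplasmic tails, meet kinases and adhesion proteins. Several membrane mucins are shed from the cell surface by proteases, and the shed forms of MUC1 and MUC16 are long-used serum markers of carcinoma.

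Upstream sequences of the membrane mucins are given as a description only. GC boxes were counted because OSK transduction introduced KLF4, a factor that binds GC-rich boxes. E-boxes are marked because SNAIL and ZEB repressors of epithelial genes recognise them. The paper reports that expression of the transduced factors, KLF4 included, did not differ significantly between the groups. Whether KLF4, SNAIL or ZEB acts on these mucins was not tested. RefSeq-derived promoter entries (GRCh38.p14) were matched for MUC1, MUC13 and MUC16. The stretches below are the 250 bases before the annotated start of MUC1 (chr1:155192916-155193165, minus strand) and of MUC13 (chr3:124934752-124935001, minus strand), written 5′ to 3′ on the gene's strand, with the E-box CACCTG in capitals.
MUC1: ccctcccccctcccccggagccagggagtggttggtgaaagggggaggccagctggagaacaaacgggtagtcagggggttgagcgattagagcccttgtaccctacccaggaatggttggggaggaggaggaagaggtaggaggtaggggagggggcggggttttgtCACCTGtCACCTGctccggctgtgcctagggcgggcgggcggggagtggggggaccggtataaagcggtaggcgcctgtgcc
MUC13: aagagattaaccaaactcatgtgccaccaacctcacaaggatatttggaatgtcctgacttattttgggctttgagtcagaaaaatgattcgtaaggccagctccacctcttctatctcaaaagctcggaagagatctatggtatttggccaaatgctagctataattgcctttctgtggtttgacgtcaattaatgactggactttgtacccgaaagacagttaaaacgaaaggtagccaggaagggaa
The MUC1 window held 2 copies of CACCTG, whose first bases lay 82 and 75 bases before the start, and 4 copies of the GC box GGGCGG. A second MUC1 window (chr1:155192910-155193159), for another annotated start, held as many of each, with CACCTG 88 and 81 bases before that start. Its GC content was 66%, against a median of 58% over all 35116 promoter windows of that length. The MUC13 window had a GC content of 41.6%, held neither CACCTG nor GGGCGG, and held 1 copy of TGANTCA, the motif of AP-1, where N is any base. Motifs were searched on both strands, and CACCTG was found in 17.5% of all windows, GGGCGG in 42.6% and TGANTCA in 6.57%. The STAT motif TTCNNNGAA, found in 6.57% of all windows, was in neither stretch. MUC16 also had 2 windows, on the minus strand, which are not printed. The first (chr19:9065752-9066001, 61.6% GC) held 1 GGGCGG and no CACCTG, and the second (chr19:9010410-9010659, 63.6% GC) held 1 CACCTG, 1 TGANTCA and no GGGCGG. These matches describe letters in the window and were not tied to any measurement.

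The 75th percentile of the background-corrected intensity, to which each array was scaled, lay between 217.5 and 270.6. Between 25809 and 29317 probes per array were well above background. All 6 epithelial markers checked (EPCAM, KRT7, KRT8, KRT18, KRT19 and CDH1) were well above background on every array. In OSK-A549-SN against parental A549, 5 of the 6 had a lower mean and 1 a higher mean. Of the lower ones 1 did not overlap, where 15.2% of all probes were lower without overlap, and 0 were called. The paper reports E-cadherin-negative cells among the OSK-A549-SN cells. Of 6 fibroblast markers, 0 or 1 was above background per array. Of 6 endothelial markers (PECAM1, CDH5, KDR, TEK, VWF and CLDN5) 2 or 3 were above background per array, 2 of them on all 9 arrays. The summed level of the 6 relative to the 75th percentile was 0.21 to 0.28 for parental cells. It was 0.23 to 0.26 for OSK-A549-Colony and 0.27 to 0.46 for OSK-A549-SN. PECAM1 was below background throughout. KDR, the third, was above background on OSK-A549-SN replicate 2 alone, at an intensity of 13.1. All parental arrays were dim for KDR and no bound on its fold over 1 was obtained, so that it entered the test through OSK-A549-SN alone. In OSK-A549-SN against parental A549 it was not called (limma adjusted p = 0.390), but within slide 1 it was (0.0319). Of 5 leukocyte markers (PTPRC, CD14, CD3E, CD79A and TYROBP) 4 or 5 were above background per array. Their summed level relative to the 75th percentile was 10.6 to 17.8 for parental cells, 9.50 to 10.6 for OSK-A549-Colony and 12.6 to 17.2 for OSK-A549-SN. Of these 5, 3 were lower without overlap in OSK-A549-Colony versus OSK-A549-SN, where 17.3% of all probes were, and their part in the mucin values was not tested. OSK-A549-SN replicate 3 lay alone on the second slide. With slide as a block it adds nothing to a contrast, and values within slide 1 are those of such a fit.

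MUC5B, the gel-forming mucin of the submucosal glands and small airways, was the secreted mucin that could be read. Its probe A_24_P102650 was well above background on all 9 arrays. The intensity of MUC5B was 2846, 3184 and 3800.0 in parental A549 replicates 1 to 3. In OSK-A549-Colony it was 2669, 2679.9 and 3392, and in OSK-A549-SN it was 1562, 1537 and 1741. The OSK-A549-SN arrays were below every array of the other groups, whereas the parental and OSK-A549-Colony arrays overlapped. After scaling to the 75th percentile, the mean log2 level of MUC5B was 3.75 ± 0.33 for parental A549, 3.58 ± 0.21 for OSK-A549-Colony and 2.75 ± 0.07 for OSK-A549-SN (SD, n = 3 each).

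Against parental A549, the OSK-A549-SN level of MUC5B was 2.00-fold lower (95% interval of the log2 fold change -1.48 to -0.52, SE 0.20), with a limma adjusted p of 0.0684. The log2 fold change in OSK-A549-Colony versus OSK-A549-SN was 0.83 (SE 0.13, interval 0.51 to 1.15), with an adjusted p of 0.105. Between OSK-A549-Colony and parental A549 it was -0.17 (SE 0.21, interval -0.69 to 0.34), with an adjusted p of 0.596. A probe was called at an adjusted p under 0.05 with a fold change over 2, so MUC5B was called in none of the 3 comparisons, which share arrays with each other. Within slide 1 the value was -0.97 against parental A549 (adjusted p = 0.147) and 0.79 in OSK-A549-Colony versus OSK-A549-SN (adjusted p = 0.148). With replicate number as a block, the limma adjusted p of MUC5B in OSK-A549-Colony versus OSK-A549-SN was 0.224.

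With all 9 arrays in 1 model, the difference of MUC5B across the 3 groups passed limma's F test, with an adjusted p of 0.0263. This test was passed by 11.4% of all 33087 probes, and among the probes of the 6 airway mucins listed at the start only that of MUC5B passed it. The adjusted p was 0.05 or more in 6 of the 9 fits that left out 1 array: 0.0680 without parental A549 replicate 2, 0.0680 without OSK-A549-Colony replicate 2, 0.0558 without OSK-A549-Colony replicate 3, and 0.0748, 0.0702 and 0.0606 without OSK-A549-SN replicates 1, 2 and 3. With slide as a block it was 0.0640, and with replicate number as a block 0.0528. The log2 fold change of MUC5B ran from -1.14 to -0.82 in OSK-A549-SN against parental A549 and from 0.71 to 0.91 in OSK-A549-Colony versus OSK-A549-SN when 1 array was left out. The plot of the F test by setting shows these values beside the other alternatives.

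**Figure D1:**
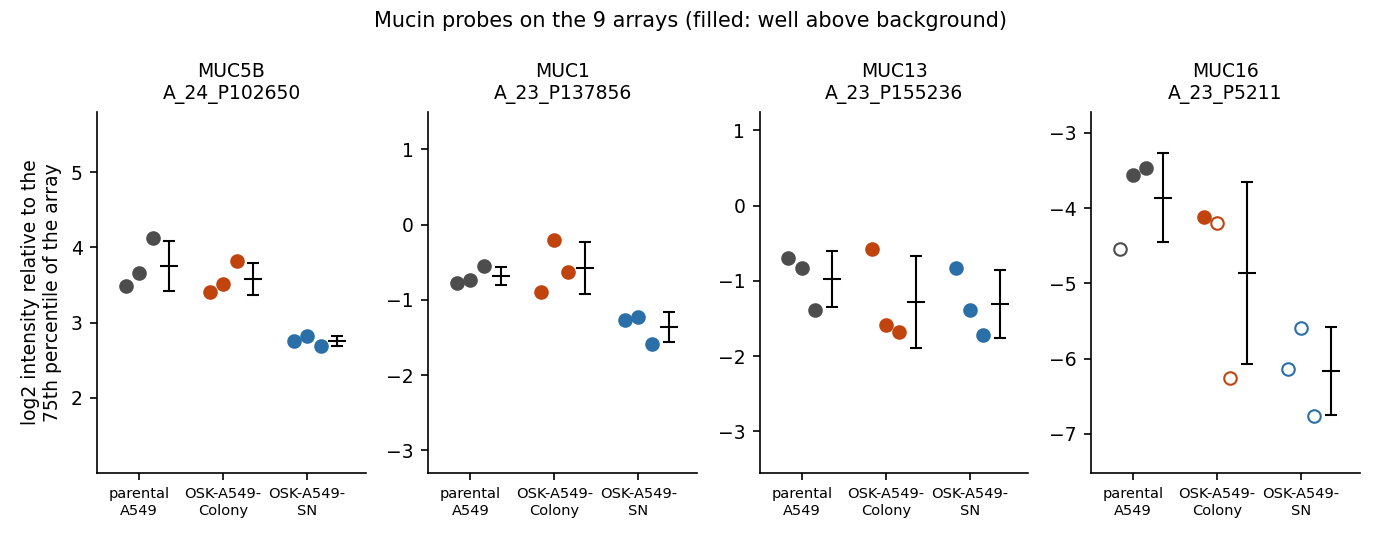
Each point is 1 array, with the log2 intensity of the probe relative to the 75th percentile of its array on the vertical axis, filled where the probe was well above background and open where it was not, and the bars give mean ± SD of the 3 arrays. All panels span the same number of log2 units. The OSK-A549-SN arrays lay below all other arrays for MUC5B and MUC1, the groups overlapped for MUC13, and the MUC16 probe was above background on 3 of 9 arrays.

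**Figure D2:**
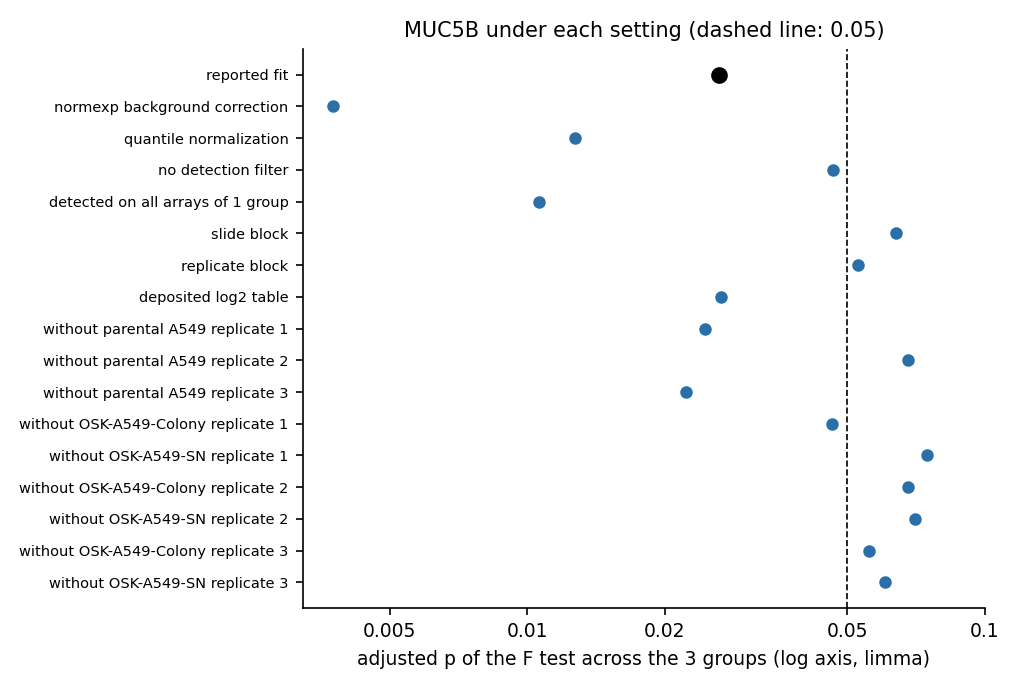
The horizontal axis, on a log scale, is the adjusted p of limma's F test for MUC5B across the 3 groups, the black point is the reported fit, and each blue point is 1 of 16 alternatives named on the vertical axis. The reported value of 0.0263 lay left of the dashed line at 0.05, and 8 of the 16 alternatives lay at or right of it.

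MUC1, the membrane mucin of most simple epithelia, whose cytoplasmic tail binds beta-catenin and kinases, was read by 2 probes. Its probe A_23_P137856 was well above background on all arrays. The intensity of MUC1 on this probe was 149.4, 151.5 and 149.4 in parental A549, 134.2, 202.6 and 156.7 in OSK-A549-Colony, and 96.3, 92.9 and 90.3 in OSK-A549-SN. The OSK-A549-SN arrays were again the lowest, with no overlap with either other group, and the other groups overlapped each other. On the scaled log2 axis MUC1 averaged -0.68 ± 0.12 for parental A549, -0.58 ± 0.35 for OSK-A549-Colony and -1.36 ± 0.20 for OSK-A549-SN (SD, n = 3 each).

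The log2 fold change of MUC1 was -0.68 in OSK-A549-SN against parental A549 (SE 0.16, interval -1.06 to -0.29), with a limma adjusted p of 0.0918. It was 0.78 in OSK-A549-Colony versus OSK-A549-SN (SE 0.21, interval 0.26 to 1.30), with an adjusted p of 0.1598. It was 0.10 in OSK-A549-Colony against parental A549 (SE 0.20, interval -0.39 to 0.60), with an adjusted p of 0.741, and without OSK-A549-Colony replicate 2, the highest array, it was -0.079. None of these was called, and the F test across the groups gave an adjusted p of 0.0571 for MUC1. Within slide 1 the log2 fold changes that involve OSK-A549-SN were -0.56 (adjusted p = 0.158) and 0.67 (adjusted p = 0.202). With normexp background correction, which shrinks differences of dim probes, they were -0.42 and 0.49. With replicate number as a block, the limma adjusted p of MUC1 in OSK-A549-Colony versus OSK-A549-SN was 0.236.

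The second MUC1 probe, A_33_P3332215, cleared the background on OSK-A549-Colony replicate 3 alone, at an intensity of 29.6, and lay between 8.3 and 14.0 on the other arrays. The bound on its fold in OSK-A549-Colony versus OSK-A549-SN was 1.42 (fitted log2 fold change 0.61, SE 0.45, interval -0.51 to 1.72, limma adjusted p = 0.475). That bound rests on the array through which alone the probe entered the test, and the interval includes 0, so no difference was established. Against parental A549 the bound was 1.17-fold, with an interval of -0.61 to 1.75 and an adjusted p of 0.454. This probe therefore gave no usable second reading of the lower MUC1 values in OSK-A549-SN.

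MUC13, a membrane mucin with epidermal growth factor-like domains that is best known from the gut and from adenocarcinomas, was read by probe A_23_P155236 above background on all arrays. The intensity of MUC13 was 158.0, 142.0 and 83.1 in parental A549, 168.2, 78.3 and 75.5 in OSK-A549-Colony, and 130.2, 83.4 and 82.0 in OSK-A549-SN. In each group the arrays spread over a wide range, and the 3 groups overlapped throughout. The log2 fold change of MUC13 was -0.31 in OSK-A549-Colony against parental A549 (SE 0.36, interval -1.19 to 0.57), with a limma adjusted p of 0.584. This value was -0.66 without OSK-A549-Colony replicate 1 and -0.11 without OSK-A549-Colony replicate 3. In OSK-A549-SN against parental A549 MUC13 was -0.34 (SE 0.30, interval -1.07 to 0.39), with an adjusted p of 0.535. In OSK-A549-Colony versus OSK-A549-SN it was 0.03 (SE 0.38, interval -0.90 to 0.97), with an adjusted p of 0.966, and its sign changed without OSK-A549-Colony replicate 1 (-0.32). Within slide 1 the MUC13 values that involve OSK-A549-SN were -0.14 against parental A549 (adjusted p = 0.831) and -0.17 for OSK-A549-Colony versus OSK-A549-SN (adjusted p = 0.825). These intervals leave room for a change in either direction. The F test gave an adjusted p of 0.700 for MUC13.

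MUC16, the very long membrane mucin that carries the CA125 antigen, was at the limit of detection. Probe A_23_P5211 was above background on parental A549 replicates 2 and 3 and on OSK-A549-Colony replicate 1. The intensity of MUC16 on it was 10.9, 21.3 and 19.6 in parental A549, 14.4, 12.7 and 3.2 in OSK-A549-Colony, and 3.3, 4.5 and 2.5 in OSK-A549-SN. The OSK-A549-SN arrays were all not well above background and all below the parental arrays, whereas the OSK-A549-Colony arrays overlapped OSK-A549-SN and parental A549. OSK-A549-SN was at least 1.69-fold lower than parental A549, with the parental side measured on 2 of 3 arrays (fitted log2 fold change -2.31, SE 0.41, limma adjusted p = 0.0577). The fitted value was -0.27 with normexp correction, so that its size depended on how dim spots were treated, and -2.01 within slide 1 (adjusted p = 0.117). In OSK-A549-Colony against parental A549 the fitted MUC16 level was 2.00-fold lower (interval of the log2 fold change -2.63 to 0.63, adjusted p = 0.359), and the log2 fold change was -0.30 without OSK-A549-Colony replicate 3 and -0.097 with normexp correction. For OSK-A549-Colony versus OSK-A549-SN the fitted value of MUC16 was 1.31 (SE 0.66, adjusted p = 0.334). It was 2.01 without OSK-A549-Colony replicate 3, 1.01 within slide 1 and 0.17 with normexp correction, and no bound over 1 was obtained, with OSK-A549-Colony above background on 1 of 3 arrays and OSK-A549-SN on none. The second MUC16 probe, A_33_P3313110, was not above background on any array.

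Read over the members, OSK-A549-SN against parental A549 had 4 mucin probes tested. The 3 that were above background on all arrays had negative log2 fold changes, and 2 of them did not overlap (MUC5B and MUC1). The fourth, of MUC16, entered through 2 parental arrays, the group where it was higher, so that its direction was partly fixed by the filter and it is left out of the counts of direction and overlap. Of all 32223 probes tested in that comparison 32.1% did not overlap, 1.55% were called and the median log2 fold change was 0.08, and of the mucin probes 0 were called. In OSK-A549-Colony versus OSK-A549-SN, 5 mucin probes were tested and 2 did not overlap (MUC5B and MUC1), both higher in OSK-A549-Colony, where 30.8% of 31748 probes did not overlap. Of the 5, the second MUC1 probe and that of MUC16 entered through 1 OSK-A549-Colony array each, the group where they were higher. Both overlapped. In OSK-A549-Colony versus OSK-A549-SN 0 probes of any gene were called (0%), with a smallest limma adjusted p of 0.0930, while 662 (2.09%) had an unadjusted p under 0.05 with a fold over 2. Of the 1143 probes called in OSK-A549-Colony against parental A549, 1087 were also tested here, and with the adjustment made only over these, 111 were called. No mucin probe could be among these, since none was called against parental A549. In OSK-A549-Colony against parental A549, 5 mucin probes were tested, 0 were called and 0 did not overlap, where 3.7% of 30869 probes were called and 41.6% did not overlap. Within slide 1, 2 of the 3 probes above background on all arrays did not overlap in each comparison with OSK-A549-SN, and no mucin probe was called. With the 2 OSK-A549-SN arrays of that slide, 43.5% and 46% of all probes did not overlap. At an unadjusted p under 0.05 there were 0 mucin probes in OSK-A549-Colony against parental A549 (30.1% of all probes), 2 in OSK-A549-Colony versus OSK-A549-SN (19.5%) and, besides MUC16, 2 in OSK-A549-SN against parental A549 (21.6%). The members are too few for their share to be set against the background as more than a description.

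**Figure D3:**
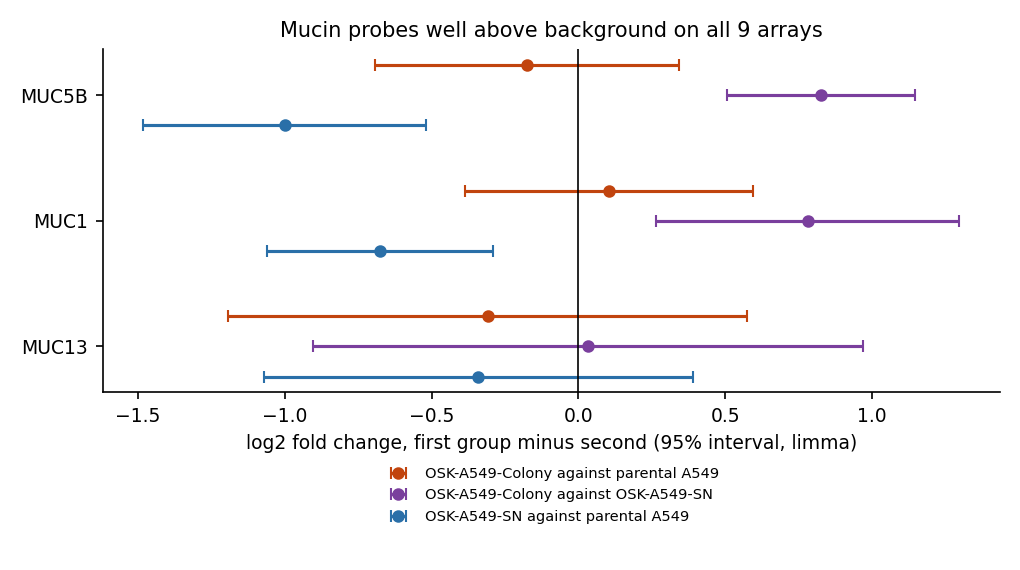
Points are log2 fold changes from limma with 95% intervals, 3 arrays per group, for the 3 mucin probes well above background on all 9 arrays. For MUC5B and MUC1 the intervals that involve OSK-A549-SN lay off 0 before adjustment (MUC5B -1.48 to -0.52 against parental A549), those of OSK-A549-Colony against parental A549 crossed it, and all 3 of MUC13 crossed it.

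The order of the groups was set out gene by gene. For MUC5B the mean level was highest in parental A549, then OSK-A549-Colony, then OSK-A549-SN. For MUC1 it was highest in OSK-A549-Colony, then parental A549, then OSK-A549-SN. For both genes, the upper neighbours (parental A549 and OSK-A549-Colony) differed by less than their spread. For MUC13 no neighbours differed by more than their spread. For MUC16 the parental arrays and the OSK-A549-Colony arrays overlapped, as did those of OSK-A549-Colony and OSK-A549-SN.

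Other mucins of the genome were compared from a list of 16 genes. Of these, 15 had a probe, 37 probes in all, and 19 probes of 11 genes were above background on at least 1 array. None was called in any comparison, at 3.7%, 0% and 1.55% of all probes. OVGP1, the oviduct mucin-like glycoprotein, had the largest differences, among those above background on all arrays, in the comparisons with OSK-A549-SN. The intensity of OVGP1 was 241.3, 270.9 and 394.1 in parental A549, 144.8, 171.3 and 216.6 in OSK-A549-Colony, and 81.5, 98.3 and 108.6 in OSK-A549-SN. The 3 groups did not overlap, and their order was that of MUC5B. The log2 fold change of OVGP1 was -1.62 in OSK-A549-SN against parental A549 (SE 0.27, limma adjusted p = 0.0531) and 0.86 in OSK-A549-Colony versus OSK-A549-SN (SE 0.19, adjusted p = 0.130). Within slide 1 these were -1.62 (adjusted p = 0.122) and 0.86 (adjusted p = 0.174). In OSK-A549-Colony against parental A549 OVGP1 was -0.76 (SE 0.30, adjusted p = 0.157).

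Of the 4 probes of MUC4, a membrane mucin of the airway that partners with ERBB2, 3 had log2 fold changes of -0.29, -0.35 and -0.30 in OSK-A549-Colony versus OSK-A549-SN, opposite in sign to MUC1 and MUC5B, with adjusted p between 0.145 and 0.463. The other MUC4 probe was not above background on any array, and the brightest was -0.30 within slide 1 (adjusted p = 0.157). CD164, a small sialomucin of endosomes and the cell surface, had values of 0.58 and 0.59 on its 2 probes in OSK-A549-Colony against parental A549, with adjusted p of 0.105 and 0.0869. The probes of MUC2, the gel-forming mucin of the intestine, disagreed: in the same comparison 1 gave 0.09 and another -0.83, with adjusted p of 0.704 and 0.0828. A dim MUC2 probe, above background on 2 OSK-A549-Colony arrays and 0 parental ones, gave 0.23 (adjusted p = 0.615). The remaining MUC2 probe was not above background on any array. MUC6, the gel-forming mucin of the stomach, was -0.46 (adjusted p = 0.388) on its only tested probe. Its parental intensities were 203.3, 83.9 and 98.6, so the value leaned on replicate 1. MUC3A, a membrane mucin of the gut, was 0.06 on its brightest probe (adjusted p = 0.819) and -0.18 on a dim one (0.704). Its other probes were not tested there.

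Mucins carry dense O-linked sugars, and the enzymes that start and extend these were listed. Of the 20 N-acetylgalactosaminyltransferases that add the first sugar, 14 were tested in OSK-A549-Colony against parental A549, and 1 rose, where 1.71% of all probes rose. The list median was 0.23 on the log2 scale, against -0.03 over all probes. The gene that rose was GALNT5, at an intensity of 24.1, 24.0 and 10.4 in parental A549, 65.8, 68.0 and 48.3 in OSK-A549-Colony and 52.1, 40.9 and 41.8 in OSK-A549-SN. All 6 transduced arrays exceeded all 3 parental arrays. Its log2 fold change was 1.72 (SE 0.32, limma adjusted p = 0.0367), with the parental side above background on 2 of 3 arrays. GALNT18 and GALNT2 were past the adjusted p but under a fold of 2 (0.78 and 0.61, adjusted p = 0.0310 and 0.0262). In the other direction lay GALNT6 at -0.66 and GALNT4 at -0.59, neither past the adjusted p (0.342 and 0.0566), and GALNT6 ran from -0.98 to -0.26 with 1 array left out. In OSK-A549-Colony versus OSK-A549-SN none of 13 was called, and the median was 0.00 (-0.016 within slide 1). Among those above background on all 6 arrays, the values furthest from 0 were those of GALNT5, GALNT4 and GALNT10, at 0.41, 0.34 and 0.31 (0.27, 0.53 and 0.21 within slide 1). None of 14 was called in OSK-A549-SN against parental A549, with GALNT4 at -0.94 and GALNT18 at 0.86 (adjusted p = 0.0927 and 0.0962). Within slide 1 GALNT4 was -1.12 and GALNT18 1.04 (adjusted p = 0.0892 and 0.0859). GALNT2 was 0.66, and 0.63 within slide 1 (adjusted p = 0.0574 and 0.116).

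Of the 17 genes of O-glycan extension, 13 were tested in OSK-A549-Colony against parental A549, with a median log2 fold change of 0.53 against -0.03 over all probes, and 1 rose, where 1.71% of all probes rose. This was FUT1, the fucosyltransferase that makes the H antigen. The intensity of FUT1 was 30.3, 39.0 and 22.0 in parental A549, 70.8, 60.2 and 92.8 in OSK-A549-Colony, and 22.9, 22.3 and 16.9 in OSK-A549-SN. The OSK-A549-Colony arrays were above all others. The log2 fold change of FUT1 was 1.30 against parental A549 (SE 0.23, limma adjusted p = 0.0337) and 1.82 against OSK-A549-SN (SE 0.26, adjusted p = 0.105), the second being a call only when p was adjusted over the 1087 probes already called against parental A549 (0.00665) and under 1 other setting. Within slide 1 the value against OSK-A549-SN was 1.59 (adjusted p = 0.146). GCNT3, which builds the branched cores found on secreted mucins, was 0.97 in OSK-A549-Colony against parental A549 (SE 0.10, adjusted p = 0.0174), under a fold of 2 and so not called. ST6GALNAC1, which makes the sialyl-Tn antigen, was 0.83 in the same comparison (adjusted p = 0.397) and ran from 0.18 to 1.31 with 1 array left out. For OSK-A549-Colony versus OSK-A549-SN it was 1.01 (adjusted p = 0.447), and 0.57 within slide 1. ST3GAL1, a sialyltransferase of core 1 sugars, was 0.69 there (adjusted p = 0.106), and 0.60 within slide 1. None of 12 was called in OSK-A549-SN against parental A549, with a median of -0.05, which was 0.04 within slide 1. There GCNT3 was 0.62, FUT1 -0.52 and C1GALT1C1, the chaperone of the core 1 synthase, 0.45 (adjusted p = 0.0936, 0.320 and 0.159), against 0.72, -0.29 and 0.50 within slide 1.

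The airway secretory list held products of goblet, club and gland cells and the factors that drive them, and 14 of its 21 genes were well above background on all 9 arrays. Among these 14, 9 had a higher mean in OSK-A549-Colony than in the OSK-A549-SN cells and 8 of them did not overlap, while 3 were lower without overlap, and none was called. Within slide 1, 11 of the 14 were higher, again 8 without overlap, and 3 were lower without overlap. Over all probes 13.5% were higher and 17.3% lower without overlap in this comparison, and 17.4% and 28.7% within slide 1. The list was chosen with earlier results of these data known. Its 14 genes were above background on all 9 arrays, whereas the shares over all probes include dim ones. The shares are therefore not a like background, and the counts are only a description. FCGBP, the mucus protein that binds to the gel, had an intensity of 2223, 2164 and 2189 in OSK-A549-Colony against 732.5, 704.5 and 618.2 in OSK-A549-SN, and 1253, 1629 and 1282 in parental A549. The 3 groups did not overlap. Its log2 fold change was 1.66 in OSK-A549-Colony versus OSK-A549-SN (SE 0.16, limma adjusted p = 0.0930), and with slide as a block 1.50 (adjusted p = 0.138). TFF3, a trefoil peptide packaged with gel-forming mucins, was 1.20 (adjusted p = 0.105), LCN2, a lipocalin that binds bacterial siderophores, was 0.91 (adjusted p = 0.183; 0.74 within slide 1), and AGR2, the disulfide isomerase needed for mucin folding, was 0.87 (adjusted p = 0.102). The club-cell secretoglobin SCGB1A1 was lower, at -0.42. Within slide 1 TFF3 was 1.27, AGR2 0.79 (adjusted p = 0.146 for both) and SCGB1A1 -0.34 (adjusted p = 0.168).

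SPDEF, the transcription factor of goblet cell differentiation, had an intensity of 1398, 1329 and 1435 in parental A549, 1208, 1142 and 1256 in OSK-A549-Colony, and 599.3, 696.4 and 826.6 in OSK-A549-SN. The 3 groups did not overlap, and the OSK-A549-SN arrays were the lowest. In OSK-A549-SN against parental A549 its log2 fold change was -0.97 (SE 0.16, limma adjusted p = 0.0495), past the adjusted threshold but under a fold of 2, and with slide as a block the adjusted p was 0.102. FOXA3, which works with SPDEF in goblet cells, was -0.72 (SE 0.15, adjusted p = 0.0740), and -0.66 within slide 1 (adjusted p = 0.147). In OSK-A549-Colony versus OSK-A549-SN, SPDEF was 0.76 (adjusted p = 0.105), and 0.78 within slide 1 (adjusted p = 0.146). In OSK-A549-SN against parental A549, 8 of the 14 genes were lower, 5 of them without overlap, where 15.2% of all probes were lower without overlap. FCGBP, SPDEF and FOXA3 were among these 5, and 1 of the 14, TFF1, was higher without overlap. The limits given above for this list and for the shares over all probes hold here too. None of the 18 genes tested was called. Within slide 1, 9 of the 14 were lower, 6 of them without overlap (19.5% of all probes), and none was called.

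In OSK-A549-Colony against parental A549, 15 genes of the secretory list were tested and 1 rose, where 1.71% of all probes rose. TFF1, the trefoil peptide partnered with MUC5AC in the stomach, had an intensity of 254.9, 201.9 and 168.0 in parental A549, 1953, 731.4 and 740.1 in OSK-A549-Colony, and 791.2, 561.3 and 419.5 in OSK-A549-SN. All transduced arrays exceeded all parental arrays. Against parental A549 the log2 fold change of TFF1 was 2.31 in OSK-A549-Colony (SE 0.39, limma adjusted p = 0.0329) and 1.49 in OSK-A549-SN (SE 0.31, adjusted p = 0.0772), the latter 1.80 within slide 1 (adjusted p = 0.0565). LCN2 was 1.30 in OSK-A549-Colony against parental A549, without overlap (adjusted p = 0.0820), and AGR2 0.78 (adjusted p = 0.0267), past the adjusted threshold but under a fold of 2. The median of the secretory list was 0.12 in OSK-A549-Colony against parental A549.

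**Figure D4:**
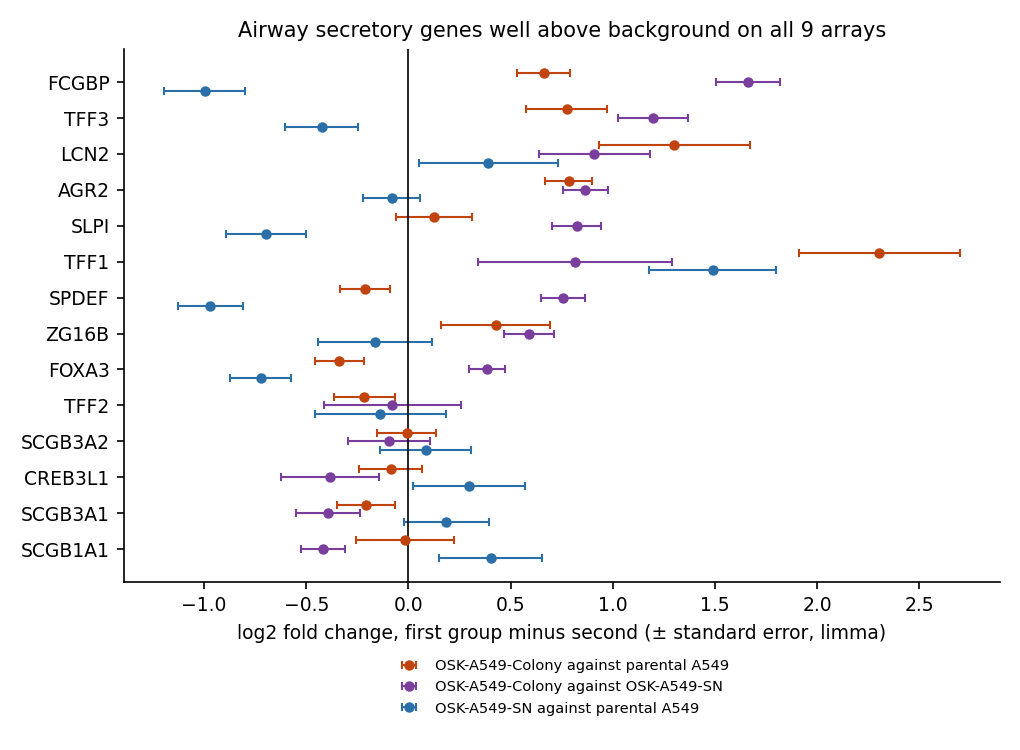
Points are log2 fold changes from limma with their standard errors, 3 arrays per group, for the 14 airway secretory genes well above background on all 9 arrays, ordered by the value in OSK-A549-Colony versus OSK-A549-SN. The purple points ran from -0.42 for SCGB1A1 to 1.66 for FCGBP, and TFF1 had the highest values against parental A549 (2.31 for OSK-A549-Colony, 1.49 for OSK-A549-SN).

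Of 11 airway epithelial transcription factors, 1 fell in OSK-A549-Colony against parental A549, where 1.99% of all probes fell, among 9 tested with a median log2 fold change of -0.37. This was HNF4A, a factor of hepatic and gut epithelium that is also active in mucinous lung tumours, with an intensity of 29.9, 27.7 and 31.3 in parental A549, 10.7, 12.2 and 13.2 in OSK-A549-Colony, and 17.6, 18.5 and 13.4 in OSK-A549-SN. The parental arrays were above all transduced arrays. Its log2 fold change was -1.31 (SE 0.16, limma adjusted p = 0.0217), with OSK-A549-Colony above background on 2 of 3 arrays. FOXA1, a pioneer factor of lung epithelium, was -0.56 (adjusted p = 0.0463), under a fold of 2. EHF and ELF3, epithelial ETS factors, were 1.31 (adjusted p = 0.0768) and -0.48 (adjusted p = 0.177). For OSK-A549-Colony versus OSK-A549-SN EHF was 0.84, GATA6, a factor of the lung endoderm, 0.43 and ELF3 0.08 (adjusted p = 0.180, 0.197 and 0.774), and within slide 1 they were 0.62, 0.32 and -0.066. None of 10 was called in OSK-A549-SN against parental A549, and the median was -0.37 (-0.39 within slide 1). Among those above background on all 6 arrays HNF4A, ELF3 and FOXA1 were furthest from 0 there, at -0.85, -0.56 and -0.51 (-0.61, -0.41 and -0.46 within slide 1).

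All 13 partners and sheddases of membrane mucins were tested in each comparison and none was called, at 3.7%, 0% and 1.55% of all probes. MET, a receptor tyrosine kinase whose signalling the membrane mucins modulate, was 0.89 in OSK-A549-Colony against parental A549 (SE 0.14, limma adjusted p = 0.0293), under a fold of 2. LGALS3, the galectin that binds mucin sugars, was 0.60 (adjusted p = 0.0486), and EZR, which ties membrane proteins to actin, was 0.49 (adjusted p = 0.0538). In OSK-A549-SN against parental A549 MET was 0.67, EZR 0.57 and RDX, a relative of EZR, 0.36 (adjusted p = 0.0942, 0.118 and 0.511), against 0.67, 0.69 and 0.34 within slide 1. For OSK-A549-Colony versus OSK-A549-SN none of those above background on all 6 arrays was further from 0 than LGALS3 at 0.25, ST14, a membrane protease, at -0.23 and MET at 0.23 (0.13, -0.20 and 0.22 within slide 1). The list medians on the log2 scale were 0.14 in OSK-A549-Colony against parental A549, -0.01 in OSK-A549-Colony versus OSK-A549-SN and 0.11 in OSK-A549-SN against parental A549. Within slide 1 the latter pair were -0.071 and 0.19.

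The 4 calls in these lists were those of TFF1, FUT1, GALNT5 and HNF4A. All 4 were lost without parental A549 replicate 2, without OSK-A549-Colony replicate 2 or without OSK-A549-Colony replicate 3, at limma adjusted p between 0.0670 and 0.138, and in these fits 1, 0 and 85 probes of any gene were called in place of 1143. With 1 array left out the log2 fold change ran from 1.86 to 2.53 for TFF1, 1.13 to 1.47 for FUT1, 1.39 to 1.88 for GALNT5 and -1.39 to -1.20 for HNF4A. Without OSK-A549-Colony replicate 1 those of FUT1, GALNT5 and HNF4A were lost too (0.0900, 0.104 and 0.0666). Without parental A549 replicate 1 those of TFF1 and FUT1 were lost (0.0501 and 0.0580), and without replicate 3 that of TFF1 was (0.0555). With normexp correction FUT1, GALNT5 and HNF4A were under a fold of 2, at 0.56, 0.57 and -0.37 on the log2 scale. With no detection filter the adjusted p of TFF1, FUT1 and GALNT5 was 0.0554, 0.0611 and 0.0640.

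The genes most like each mucin were those with the smallest root mean square difference of mean-centred log2 values over the 9 arrays, among 13936 genes. For MUC5B these were TLR1 (0.11), ADRA1D (0.13) and KCNK5 (0.14). For MUC1 they were SLPI (0.14), GLRX (0.15) and SGPP2 (0.18), and SLPI, a secreted protease inhibitor of airway glands, was also in the secretory list. For MUC13 they were NEFL (0.16), CA2 (0.18) and GDA (0.18). MUC5B lay at 0.26 from MUC1, with 0.581% of the genes nearer to MUC1 than it. MUC13 lay at 0.59 from MUC1 and 0.64 from MUC5B, with 83.2% and 77.3% of the genes nearer to these than it. These are descriptions over 9 arrays that share group membership, scaling and scanner.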

How the data were processed

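Spot intensity, background-subtracted but not yet scaled, was deposited by the authors from Agilent Feature Extraction 11.5.1.1 on 1-colour arrays. They also deposited a log2 table that matched the values used here to within 0.001 after 1 constant per array. The study's own analysis used GeneSpring GX on non-control probes detected in at least 1 sample, with thresholds on p (0.05) and fold change (2); its other settings, such as the normalization, are not given in the sources used here.

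Control spots (4259 of 62976) and outlier spots (357 to 484 per array) were dropped, values were put on a log2 scale, centred on each array's 75th percentile and averaged over the spots of a probe. Saturation was not seen on any spot. Array annotation was hg19, and RefSeq accessions were matched without version numbers. Groups were compared with limma 3.58.1 in R 4.3.3, on 6 arrays each, over the probes well above background on at least 1, with Benjamini-Hochberg adjustment. The limma fit was tested on simulated data. Where all arrays of a group were dim, a fold is a bound: the brighter mean against dim arrays raised to their lowest detected value (7.91 to 13.5 in intensity). This bound makes no allowance for the spread between arrays. The labels do not say that arrays of a group came from separate cultures, though the methods describe independent transductions, so p-values measure the spread between these arrays, and their number limits the precision.

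Members and gene lists were chosen with earlier results of these data known. Every mucin probe is named. List genes were read by the probe with the highest mean and named if called, otherwise for the 3 largest changes per comparison among those above background on all its arrays, and other genes only as examples. Alternatives were normexp correction (on median brightness with offset 50, because no mean was given), quantile normalization, both detection filters, slide and replicate blocks, all 9 arrays in 1 fit, no moderation, the deposited table, adjustment over probes called against parental A549, and leaving out each array. Probe sequences were not used here.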

Additional observations from a re-analysis of the deposited data

How the results depend on the processing

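The direction of MUC5B and MUC1 in both comparisons that involve OSK-A549-SN held under every alternative. MUC5B ran from -1.14 to -0.82 in OSK-A549-SN against parental A549 (adjusted p 0.0133 to 0.215) and from 0.71 to 0.91 in OSK-A549-Colony versus OSK-A549-SN (0.0207 to 0.318). Differences near 0 changed sign: in OSK-A549-Colony against parental A549, MUC1 was -0.079 without OSK-A549-Colony replicate 2 (leaving out each array, -0.079 to 0.27), and MUC5B was 0.011 without parental A549 replicate 3 (-0.31 to 0.011). MUC13 in OSK-A549-Colony versus OSK-A549-SN was -0.17 with slide as a block and ran from -0.32 to 0.27 with 1 array left out, below 0 without OSK-A549-Colony replicate 1 (-0.32), OSK-A549-SN replicate 2 (-0.003) or OSK-A549-SN replicate 3 (-0.17). The cause was not tested.

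In OSK-A549-SN against parental A549 the count of mucin probes called was 0 as reported. It was 1 with normexp correction (MUC5B, -1.03, limma adjusted p = 0.0133), 2 with quantile normalization (MUC5B, -1.07, adjusted p = 0.0412, and MUC16, -2.24, adjusted p = 0.0391), 1 among probes above background on all arrays of a group (MUC5B, adjusted p = 0.0246) and 1 with all 9 arrays in 1 fit (MUC5B, adjusted p = 0.0198). MUC5B sat at the fold limit, at 2.00. MUC16 entered this comparison through 2 parental arrays, the group where it was higher, with 0 OSK-A549-SN arrays above background. The direction of its call was therefore partly fixed by the filter, and the -2.24 is not a measured size. For the F test the count was 1 as reported, 2 with the stricter filter (MUC5B and MUC1, adjusted p = 0.0106 and 0.0283), 0 with slide as a block, and 0 to 1 when 1 array was left out. Without OSK-A549-Colony replicate 3 the 1 probe was MUC16 (adjusted p = 0.0430), not MUC5B, and the same limit holds for it.

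The labels tie no replicate number to a dish, but same-numbered OSK-A549-Colony and OSK-A549-SN arrays share a passage (numbers 1 and 3 the same one), and per the methods both kinds of cells came from the same dishes. Same-numbered arrays of OSK-A549-Colony and OSK-A549-SN correlated at 0.239, 0.073 and 0.138 in their deviations from the group means. Each was the best match of its array. Passage, methods and these correlations all point to pairing of the 2 groups by number, though no label states it. The reported fits of OSK-A549-Colony versus OSK-A549-SN ignore such pairing. Same-numbered correlations with parental A549 ran from -0.196 to 0.150. With a replicate block the F test count was 0 (MUC5B, adjusted p = 0.0528), and no probe of any gene was called in any pairwise comparison, TFF1, FUT1, GALNT5 and HNF4A included. Over all probes, the 1143 calls of OSK-A549-Colony against parental A549 became 333 with normexp, 583 with no filter, 336 with no moderation and 0 to 1362 with 1 array left out. The 498 of OSK-A549-SN became 232 with normexp, 215 with no filter, 980 with the stricter filter, 1085 with all 9 arrays, 5 with no moderation, 187 with slide as a block and 0 to 190 with 1 array left out. The 0 of OSK-A549-Colony versus OSK-A549-SN became 32, 139 and 9 with normexp, the stricter filter and all 9 arrays. Probes near background, such as those of MUC16, carry fitted changes that depend on the correction.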
